A study of Homo sapiens with 6 samples.

Results

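The genes examined here are 37 genes of cholesterol and fatty acid synthesis and of the SREBP system that controls them, chosen by symbol from the 16305 different genes in the files. They comprised 17 enzymes of sterol synthesis, 11 enzymes of fatty acid synthesis, 6 regulators and 3 genes of sterol uptake or esterification, and all 37 were found. RNA-seq was performed on Huh7SR cells, a pool of cells (called Huh7-R in the study's text) obtained from the hepatocellular carcinoma line Huh7 by long-term exposure to sorafenib. The study compared 3 samples treated with fostamatinib, an inhibitor of spleen tyrosine kinase, with 3 samples that received the solvent DMSO. The aim was to see how the drug alters gene expression in resistant cells. The paper did not detect this kinase as protein in Huh7 cells, and it proposes that the drug acts there through other targets. The labels give 2 µM and 24 h for all 6 samples, DMSO included, and all 6 are of the resistant line, so no parental Huh7 cells enter the comparison. The labels speak of triplicate treatment without saying that the cultures were separate, and p-values may therefore measure technical spread only.

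Cholesterol is built from acetyl-CoA by way of mevalonate, farnesyl diphosphate, squalene and lanosterol, while fatty acids are built from malonyl-CoA and then elongated and desaturated. SREBF1 and SREBF2 encode transcription factors that are held in the membrane of the endoplasmic reticulum. The escort protein SCAP carries them to the Golgi apparatus for cleavage when sterols are low, and the INSIG proteins retain them when sterols are high. The SREBF2 product acts mainly on sterol genes and the liver form of SREBF1 mainly on fatty acid genes, and MLXIPL (ChREBP) drives fatty acid synthesis in response to glucose. Since SREBP activity is set largely by cleavage, mRNA levels do not measure it.

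Promoter stretches of 8 members are shown because they carry the letters by which SREBPs and their partner NF-Y are known to bind, and because they come from genes that rose, fell or did not pass the test. They were taken from RefSeq (GRCh38.p14), which had windows of 250 bases before to 50 bases after a transcript start for 33 of the 37 members, and bases after the start are not printed. Capitals mark TCACNCCAC in SREBF2 (a core of the sterol regulatory element), the shorter TCACNCCA in MSMO1 and MVK, CACGTG (an E-box) in INSIG1, and CCAAT, all searched on both strands, so that ATTGG is CCAAT on the other strand. The 9-letter core contains the 8-letter form.
SREBF2, chr22:41832957-41833018, + strand: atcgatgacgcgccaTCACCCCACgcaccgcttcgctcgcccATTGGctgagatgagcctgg
INSIG1, chr7:155297693-155297843, + strand: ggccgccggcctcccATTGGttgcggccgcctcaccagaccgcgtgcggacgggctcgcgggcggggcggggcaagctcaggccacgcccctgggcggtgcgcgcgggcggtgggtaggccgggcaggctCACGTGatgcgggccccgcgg
MSMO1, chr4:165327469-165327654, + strand: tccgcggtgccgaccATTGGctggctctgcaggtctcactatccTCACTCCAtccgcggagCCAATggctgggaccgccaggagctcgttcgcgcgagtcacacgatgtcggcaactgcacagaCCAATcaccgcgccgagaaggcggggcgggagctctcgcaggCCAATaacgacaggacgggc
MVK, chr12:109573569-109573767, + strand: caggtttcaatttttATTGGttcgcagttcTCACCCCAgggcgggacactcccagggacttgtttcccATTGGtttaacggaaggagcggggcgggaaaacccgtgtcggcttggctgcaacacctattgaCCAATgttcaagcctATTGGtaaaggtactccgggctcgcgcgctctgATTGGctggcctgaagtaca
TM7SF2, chr11:65111783-65111817, + strand: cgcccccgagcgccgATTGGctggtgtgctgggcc
LSS, chr21:46228905-46228939, - strand: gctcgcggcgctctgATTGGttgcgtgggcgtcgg
FDPS, chr1:155308675-155308834, + strand: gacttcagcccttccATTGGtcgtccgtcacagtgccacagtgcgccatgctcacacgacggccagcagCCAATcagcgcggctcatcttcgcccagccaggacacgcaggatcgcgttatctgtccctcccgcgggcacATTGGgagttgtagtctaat
SCD, chr10:100346989-100347066, + strand: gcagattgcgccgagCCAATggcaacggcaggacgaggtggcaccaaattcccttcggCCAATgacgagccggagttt

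The CCAAT letters were frequent among the sterol genes. They stood in 15 of 20 promoter windows of sterol synthesis genes (75.0%), against 34.6% of all 35116 windows and 34.7% of the windows of tested genes. Of the fatty acid genes' windows, 9 of 16 (56.3%) held them. The letters were found in all 3 sterol genes that rose and have a window, in all 4 that fell and have one, and in 6 of the 8 that did not pass the test. Counted by gene, 43.1% of all tested genes with a window held them. The core TCACNCCAC was found in 1 of the members' 45 windows, that of SREBF2, against 1.13% of all windows, and the 8-letter form in 4 (8.89% against 3.95%). The E-box was found in 6 (13.3% against 7.26%, or 9.24% of the windows of tested genes). The letters GGGCGG (a GC box, bound by SP1), also searched on both strands, were found in 39 of the 45 windows (86.7%), against 44.95% of all windows and 64.3% of those of tested genes. These matches describe letters within a short window and were not tested as binding sites.

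The 6 libraries held 13303451 to 15272737 reads on the listed genes. Each gene's value is a level in CPM (reads per 1e6 reads), obtained from the deposited log2 CPM, and a change is the log2 fold change of fostamatinib against DMSO from limma's linear model with its standard error (SE). A gene was called higher or lower when its p-value, adjusted over all genes by the Benjamini-Hochberg method, was under 0.05. Sample values within a group correlated at 0.988 or above across genes, and values of different groups at 0.972 or below. All 12 hepatocyte markers were found, and all 12 were higher after fostamatinib, against 23.3% of all tested genes. Their summed level was 5168 ± 174 CPM (SD, n = 3) in DMSO and 8044 ± 207 CPM (SD, n = 3) in fostamatinib. Of markers of other cell types, 5 of 6 fibroblast genes had a summed level of 297 to 306 CPM in DMSO and 308 to 312 CPM in fostamatinib, mostly from LUM (lower, -0.40) and COL1A2 (higher, 0.37), and PDGFRB was also higher (0.95). Blood cell markers (2 of 6, mainly LYZ) summed to 9.67 to 11.7 CPM over all samples, and the only endothelial marker found of 4 listed, PECAM1, was higher, at 6.13 to 6.96 CPM in DMSO and 8.76 to 9.93 CPM in fostamatinib (0.51, adjusted p = 8.37e-04, limma). The other markers, among them PTPRC, CD3E, VWF, CDH5 and DCN, were not analysed here. Genes of the mitochondrial genome took 6.15% to 6.67% of the reads in DMSO and 8.16% to 8.40% in fostamatinib. The part of these differences in the results was not tested, and in bulk RNA fewer cells of a type cannot be told apart from less RNA per cell.

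Fostamatinib changed the lipid synthesis genes in both directions and mostly by small amounts. Of the 37 genes, 36 met the authors' minimum of reads in both groups, and of these 9 were higher, 15 were lower and 12 did not pass the test in limma. SOAT2 met that minimum only in the fostamatinib samples, where it had more reads, so it had to differ between the groups, and it is left out of these counts. Among all tested genes 47.8% passed, 23.3% higher and 24.5% lower, and where the mean was 200 reads or more 63.2% passed, against 22 of the 31 members at that depth (71.0%). The median absolute log2 fold change of the members that passed was 0.32. Over all genes that passed it was 0.41, and 0.32 where the mean was 200 reads or more. Of the members, 3 (TM7SF2, ACACB and MLXIPL) passed and changed more than 2-fold, against 7.13% of all genes. In 25 of the 36 genes the fostamatinib samples did not overlap the DMSO samples, against 54.1% of all genes. The share of members that passed was therefore near that of other well-covered genes.

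**Figure D1:**
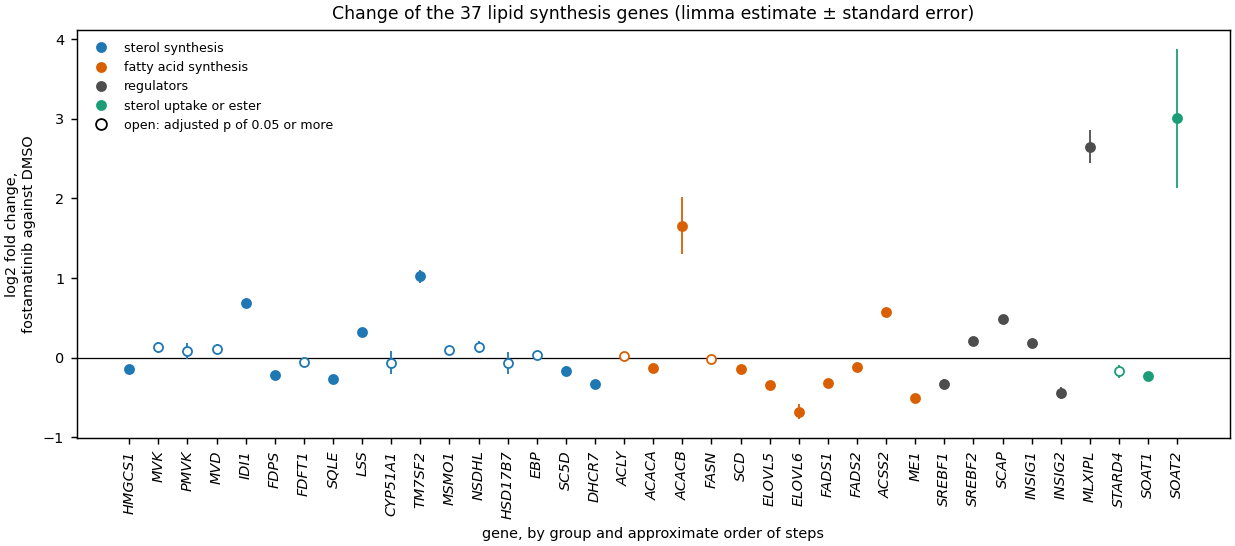
Log2 fold change of fostamatinib against DMSO (y axis, limma estimate with its standard error) for each of the 37 genes (x axis, by group); filled points had an adjusted p-value under 0.05. Most points lie within 0.7 of zero, while TM7SF2 (1.02), ACACB (1.66) and MLXIPL (2.65) stand above, as does SOAT2. SOAT2 is in the files only through its fostamatinib reads, so its filled point is no evidence of a change.

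The sterol synthesis genes were split. Of the 17, 3 were higher (IDI1, LSS and TM7SF2), 5 were lower (HMGCS1, FDPS, SQLE, SC5D and DHCR7) and 9 did not pass the test. The share that passed, 47.1%, was near the 47.8% of all tested genes (23.3% higher and 24.5% lower). The 17 genes had a median log2 fold change of 0.03, against 0.0015 over all genes. Their summed level was 1880 ± 7.21 CPM (SD, n = 3) in DMSO and 1883 ± 33.2 CPM (SD, n = 3) in fostamatinib. The sum thus moved by less than the spread between samples, while single enzymes within it moved in opposite directions.

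In the mevalonate part of the pathway, HMGCS1, which makes HMG-CoA, was expressed at 438, 434 and 444 CPM in DMSO and at 404, 396 and 400 CPM in fostamatinib. All 3 treated samples were lower, and the change was -0.14 (SE 0.035, adjusted p = 1.49e-03, limma). The kinases MVK (0.13, 95% interval -0.01 to 0.27) and PMVK (0.09, interval -0.12 to 0.29) and the decarboxylase MVD (0.11, adjusted p = 0.0882) did not pass the test. IDI1 (chromosome 10 from 1085092 to 1095059, GRCh37), the isomerase that supplies dimethylallyl diphosphate, rose from 114, 106 and 119 CPM to 184, 182 and 178 CPM. The groups were well apart, with a change of 0.68 (SE 0.045, adjusted p = 5.56e-15, limma). FDPS, which joins these units to farnesyl diphosphate, went the other way, from 213, 221 and 209 CPM to 192, 187 and 175 CPM, a change of -0.22 (SE 0.042, adjusted p = 5.58e-05). Exons of IDI1 lie opposite IDI2-AS1 over 643 bases and those of FDPS opposite RUSC1-AS1 over 693 bases, and neither antisense gene averaged more than 12.7 reads in a group. IDI1 and FDPS are neighbouring steps, and so a rise stood next to a fall.

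In the part from squalene to lanosterol, FDFT1 (squalene synthase) did not pass the test, with 150, 151 and 144 CPM in DMSO and 148, 142 and 138 CPM in fostamatinib (-0.06, 95% interval -0.14 to 0.03). SQLE, the squalene epoxidase and a rate-limiting step, fell from 90.7, 87.4 and 90.7 CPM to 75.7, 77.2 and 70.3 CPM, with no overlap between groups (-0.27, SE 0.051, adjusted p = 3.34e-05, limma). LSS, which closes the ring to lanosterol, rose from 132, 135 and 125 CPM to 163, 161 and 165 CPM, again with no overlap (0.32, SE 0.043, adjusted p = 1.10e-07, limma).

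After lanosterol, TM7SF2, a sterol reductase (chromosome 11 from 64879317 to 64883856, GRCh37), changed most. It had 15.9, 15.4 and 15 CPM in DMSO and 32.5, 32.7 and 28.8 CPM in fostamatinib. Every treated sample was far above every control sample, and the change was 1.02 (SE 0.080, adjusted p = 3.80e-13, limma). TM7SF2 shares 18 exonic bases with VPS51 on the same strand, whose own change was 0.36. DHCR7, which reduces dehydrocholesterol to cholesterol at the end of the pathway, fell from 220, 231 and 206 CPM to 178, 168 and 178 CPM (-0.33, SE 0.044, adjusted p = 1.08e-07, limma). The sterol desaturase SC5D had 42.6, 38.7 and 47.1 CPM in DMSO and 37.5, 40.2 and 36.4 CPM in fostamatinib. These groups overlapped, and although SC5D was called lower (-0.17, adjusted p = 0.0429, limma) the call was lost without DMSO replicate 1 (adjusted p = 0.0858), DMSO replicate 3 (0.262), fostamatinib replicate 1 (0.109) or fostamatinib replicate 3 (0.172), and without a variance trend (0.196).

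The other enzymes between lanosterol and cholesterol did not pass the test. The isomerase EBP, at 175 ± 5.30 CPM (SD, n = 3) in DMSO and 179 ± 10.5 CPM (SD, n = 3) in fostamatinib, changed by 0.03 (95% interval -0.06 to 0.12). Of its exonic bases, 36.4% also belong to another coding gene on its strand, so its level is less certain. The oxidase MSMO1, whose promoter above holds 4 CCAAT boxes, had a change of 0.09 (adjusted p = 0.0853), with 132, 123 and 134 CPM in DMSO and 136, 137 and 142 CPM in fostamatinib. NSDHL had a change of 0.14 (adjusted p = 0.127). MVD, MSMO1 and NSDHL passed when 1 library was left out, MVD without DMSO replicate 2 (adjusted p = 0.0199), MSMO1 without DMSO replicate 3 (0.0258) and NSDHL without fostamatinib replicate 1 (0.0445). CYP51A1 (lanosterol demethylase) and HSD17B7 had few reads, 115 and 101 on average in DMSO, and wide intervals, from -0.35 to 0.23 for CYP51A1 and from -0.35 to 0.22 for HSD17B7. In the annotation used here 68.2% of the exonic bases of CYP51A1 also belong to other coding genes on its strand, and 108 bases lie opposite AKAP9, which rose from 497 to 1160 reads on average, so that its level is uncertain. HSD17B7 has the near-identical copy HSD17B7P2 (27.3 reads on average in both groups), between which reads could have been split.

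**Figure D2:**
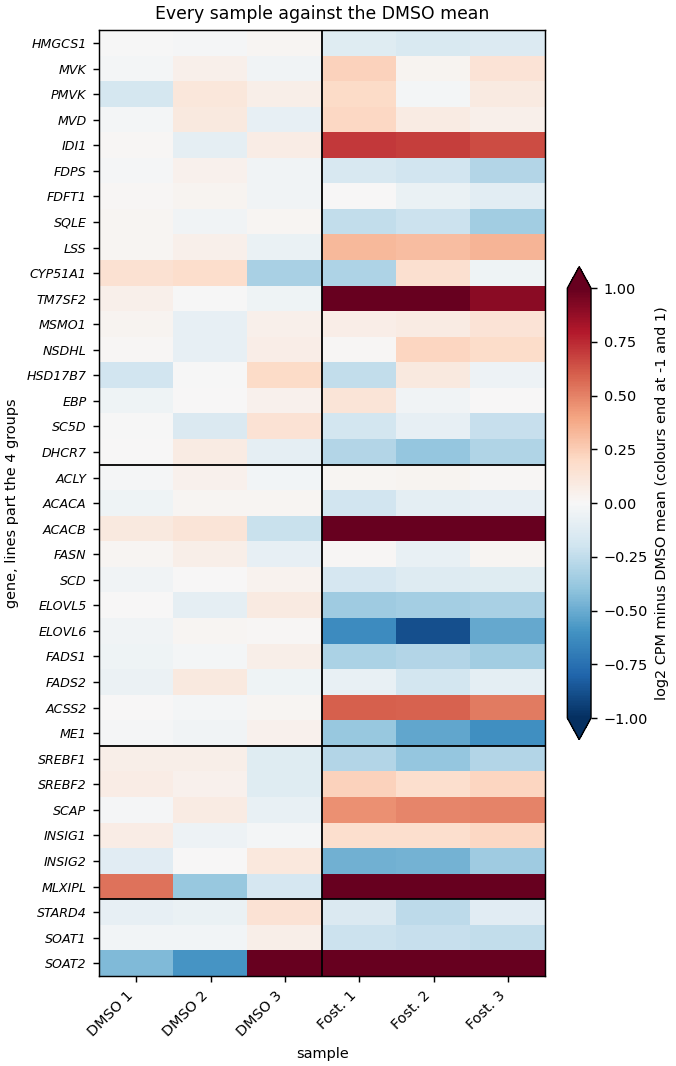
Log2 CPM of each gene (rows) in each of the 6 samples (columns), minus the gene's DMSO mean; red is higher and blue is lower, and colours end at -1 and 1. IDI1, LSS and TM7SF2 are red in all 3 fostamatinib samples, the elongases and FADS1 are blue in all 3, and the DMSO column with strong red for SOAT2 rests on 1 read.

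Fatty acid synthesis genes were mostly lower. Of the 11 genes, 7 were lower (ACACA, SCD, ELOVL5, ELOVL6, FADS1, FADS2 and ME1), 2 were higher (ACACB and ACSS2) and 2 did not pass the test (ACLY and FASN), with a median log2 fold change of -0.12. Their summed level was 2172, 2226 and 2223 CPM in DMSO and 2034, 2024 and 2041 CPM in fostamatinib, with no overlap, and SCD made up 36.1% of the sum in DMSO. The share of genes called was 81.8% here and 47.1% among the sterol synthesis genes. Over all tested genes it was 47.8%, and 63.2% where the mean was 200 reads or more. The difference between the sterol and fatty acid lists was not tested. Without a mean-variance trend in limma 4 of the 7 genes remained lower.

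Of the enzymes that make the chain itself, 1 of 3 passed the test. ACLY, which supplies cytosolic acetyl-CoA from citrate, had 188, 195 and 186 CPM in DMSO and 192, 193 and 191 CPM in fostamatinib (0.02, 95% interval -0.06 to 0.10). FASN, the fatty acid synthase, had 367, 378 and 342 CPM in DMSO and 366, 344 and 367 CPM in fostamatinib. The samples of both groups were intermixed, and the interval of the change, from -0.09 to 0.07, lay within 0.1 of zero. ACACA, the cytosolic acetyl-CoA carboxylase that makes malonyl-CoA, was slightly lower (95.5, 99.8 and 99.5 CPM against 85.9, 92.0 and 92.9 CPM, a change of -0.12, adjusted p = 0.0358 from limma). Its call was lost without DMSO replicate 2 (adjusted p = 0.0915), DMSO replicate 3 (0.0575), fostamatinib replicate 1 (0.198) or fostamatinib replicate 2 (0.0539), and without a variance trend (0.119).

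The 5 members that lengthen or desaturate fatty acids were called lower, against 24.5% of all tested genes. Of related enzymes outside the 37 genes (named after their values were seen), ELOVL2 was called higher (0.14, adjusted p = 0.0439, limma), and ELOVL4 (adjusted p = 0.489) and ELOVL7 (adjusted p = 0.453) did not pass the test, while ELOVL1 (-0.19), ELOVL3 (-1.0) and FADS3 (-0.68) were lower. ELOVL6 (chromosome 4 from 110967002 to 111120355, GRCh37), which extends saturated chains made by FASN, had 17.6, 18.3 and 18.2 CPM in DMSO and 11.7, 9.79 and 12.6 CPM in fostamatinib. This was the largest fall of the 37 genes (-0.67, SE 0.099, adjusted p = 6.03e-07, limma). ELOVL5, which extends polyunsaturated chains, fell from 142, 133 and 151 CPM to 111, 112 and 113 CPM (-0.34, SE 0.047, adjusted p = 1.67e-07). FADS1, a desaturase of polyunsaturated fatty acids, fell from 271, 275 and 291 CPM to 224, 228 and 219 CPM (-0.32, SE 0.040, adjusted p = 2.44e-08). In each of these 3 genes the groups did not overlap, as in 54.1% of all genes. SCD, the stearoyl-CoA desaturase, was the member with the most reads and fell from 776, 799 and 814 CPM to 710, 728 and 731 CPM (-0.14, SE 0.033, adjusted p = 6.85e-04). Without a variance trend the adjusted p-value of SCD was 0.0537. FADS2 was called lower (-0.12, adjusted p = 0.0309, limma), but not without DMSO replicate 2 (0.223), fostamatinib replicate 2 (0.196) or fostamatinib replicate 3 (0.0510), nor without a variance trend (0.185). FADS1 and FADS2 lie on opposite strands and share 490 exonic bases, and FADS2 shares 49 with FEN1, which fell by 0.66 on the log2 scale, so part of their reads could have been assigned either way.

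Genes that supply acetyl-CoA and NADPH moved apart. ACSS2, which makes acetyl-CoA from acetate, rose from 80.9, 79.6 and 82.1 CPM to 122, 122 and 116 CPM, well beyond the spread of either group (0.57, SE 0.047, adjusted p = 1.59e-12, limma). ME1, the cytosolic malic enzyme that yields NADPH, fell from 93.1, 91.3 and 96.7 CPM to 71.9, 65.2 and 61.4 CPM, likewise without overlap (-0.50, SE 0.055, adjusted p = 1.10e-09, limma). ACACB, the carboxylase whose malonyl-CoA restrains fatty acid oxidation at mitochondria, was scarce, with 7, 8 and 6 reads in DMSO and 25, 27 and 15 reads in fostamatinib. It was higher in all 3 treated samples, with a change of 1.66 (SE 0.354, adjusted p = 1.81e-04, limma), and the low reads make the size of this change imprecise.

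All 6 regulators were called, against 47.8% of all tested genes and 63.2% of those averaging 200 reads or more. SREBF1 (chromosome 17 from 17713713 to 17740316, GRCh37) fell from 109, 109 and 96.2 CPM to 85.4, 79.7 and 85.2 CPM, with no overlap (-0.32, SE 0.052, adjusted p = 2.78e-06, limma). SREBF2 (chromosome 22 from 42229109 to 42303310), whose promoter carries the sterol regulatory core shown above, was higher, with 220, 216 and 193 CPM in DMSO and 245, 235 and 243 CPM in fostamatinib (0.20, SE 0.044, adjusted p = 1.84e-04). Without a variance trend the adjusted p-value of SREBF2 was 0.0586. Counts per gene do not separate the isoforms of SREBF1, and 556 of its exonic bases lie opposite RAI1, which changed by -0.20.

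SCAP, the escort of the SREBPs, rose from 81.1, 86.4 and 77.7 CPM to 112, 115 and 115 CPM (0.48, SE 0.049, adjusted p = 2.43e-10, limma). The retention factors went opposite ways. INSIG1, itself a known SREBP target, was higher (42.8, 39.2 and 40.1 CPM against 45.7, 45.7 and 47.0 CPM, a change of 0.18, adjusted p = 0.0130), and its call was lost without DMSO replicate 2 (adjusted p = 0.0560) or fostamatinib replicate 3 (0.0543). INSIG2 fell from 28.6, 30.9 and 33.2 CPM to 22.1, 22.2 and 24.1 CPM (-0.44, SE 0.075, adjusted p = 8.63e-06). MLXIPL (chromosome 7 from 73007524 to 73038873, GRCh37), the glucose-responsive factor, had 26, 15 and 17 reads in DMSO and 105, 127 and 109 reads in fostamatinib. Its level was 1.37 ± 0.484 CPM (SD, n = 3) in DMSO and 8.29 ± 0.638 CPM (SD, n = 3) in fostamatinib. This was a 6.27-fold rise (2.65 on the log2 scale, SE 0.208, adjusted p = 4.68e-13, limma), the largest among members with more than 10 reads in every sample. The factors that partner or resemble it did not pass the test, with changes of 0.04 for MLX (adjusted p = 0.630) and -0.10 for MLXIP (adjusted p = 0.114).

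Of the 3 genes of sterol uptake or esterification, SOAT1 was lower, STARD4 did not pass the test, and SOAT2 is given by its reads alone. SOAT1, which esterifies cholesterol in most tissues, fell from 84.7, 84.7 and 90.1 CPM to 74.3, 73.8 and 72.9 CPM, with no overlap (-0.23, SE 0.050, adjusted p = 2.02e-04, limma). SOAT2, the esterifying enzyme of hepatocytes and enterocytes, stood near the limit of detection, with 1 read over the 3 DMSO samples and 15 over the 3 fostamatinib samples. Since its fostamatinib reads alone kept it in the files, no fold change or test is given for it. STARD4, a cytosolic sterol carrier, did not pass the test although its groups did not overlap (20.7, 20.9 and 24.1 CPM against 19.8, 18.3 and 20.3 CPM, a change of -0.17, adjusted p = 0.0916).

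Related genes were then compared within each sample, since a ratio between genes does not depend on library scaling. SREBF2 had 2.02, 1.98 and 2.00 times the CPM of SREBF1 in the DMSO samples and 2.86, 2.95 and 2.85 times in the fostamatinib samples. The ratio of INSIG1 to INSIG2 rose from 1.5, 1.27 and 1.21 to 2.07, 2.06 and 1.95. In both pairs the groups were apart, and the log2 ratio shifted by 0.53 and 0.62. The log2 ratio of ACACB to ACACA shifted by 1.78 and that of ELOVL5 to ELOVL6 by 0.33, also without overlap. That of FADS1 to FADS2 shifted by -0.20 and overlapped. Over the 6 pairs compared, the exact permutation test (two-sided, 3 against 3) gave p = 0.10 in 4 of the 5 that do not hold SOAT2, the smallest value this design allows, and p = 0.20 for the FADS pair, or 0.12 and 0.20 after Benjamini-Hochberg adjustment over the 6. The sixth pair, SOAT2 and SOAT1, gives no shift, because SOAT2 had 0 reads in 2 DMSO samples and its ratio there is set by the 0.5 added to each count.

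**Figure D3:**
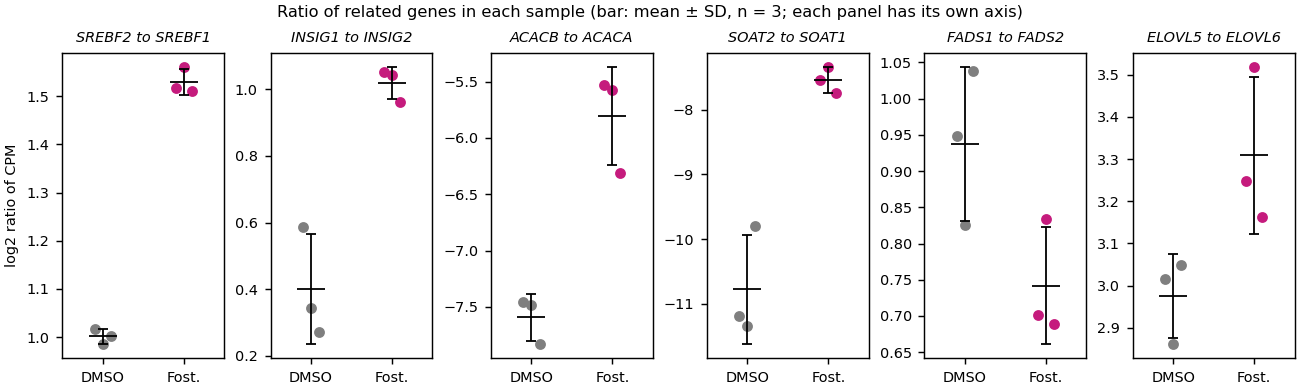
Log2 ratio of the CPM of 2 related genes (y axis, a separate scale in each panel) in each DMSO and fostamatinib sample; points are samples and bars are mean ± SD (n = 3). The SREBF2 to SREBF1 ratio sits near 1.0 in DMSO and near 1.53 in fostamatinib, and the FADS1 to FADS2 ratio is the only one whose groups overlap. The DMSO points of the SOAT2 panel rest on 1 read in all.

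Levels were set side by side per kilobase of exon, so that genes of different length could be compared. SCD was the most abundant at 152 CPM per kb in DMSO and 138 in fostamatinib, followed by EBP at 99.1 and 101, HMGCS1 at 66.2 and 60.3 and FDPS at 57.7 and 49.7 CPM per kb. SREBF2 was present at 26.0 and 29.9 CPM per kb and SREBF1 at 12.7 and 10.1. At the low end, MLXIPL had 0.285 and 1.72 CPM per kb and ACACB 0.0353 and 0.114, with SOAT2 below both in DMSO on 1 read. The genes with a change of over 2-fold thus came from the low part of the range, TM7SF2 being the most abundant of them at 4.53 and 9.19 CPM per kb. Exon lengths are those of all annotated transcripts together, which lowers the value of genes with long rare exons.

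**Figure D4:**
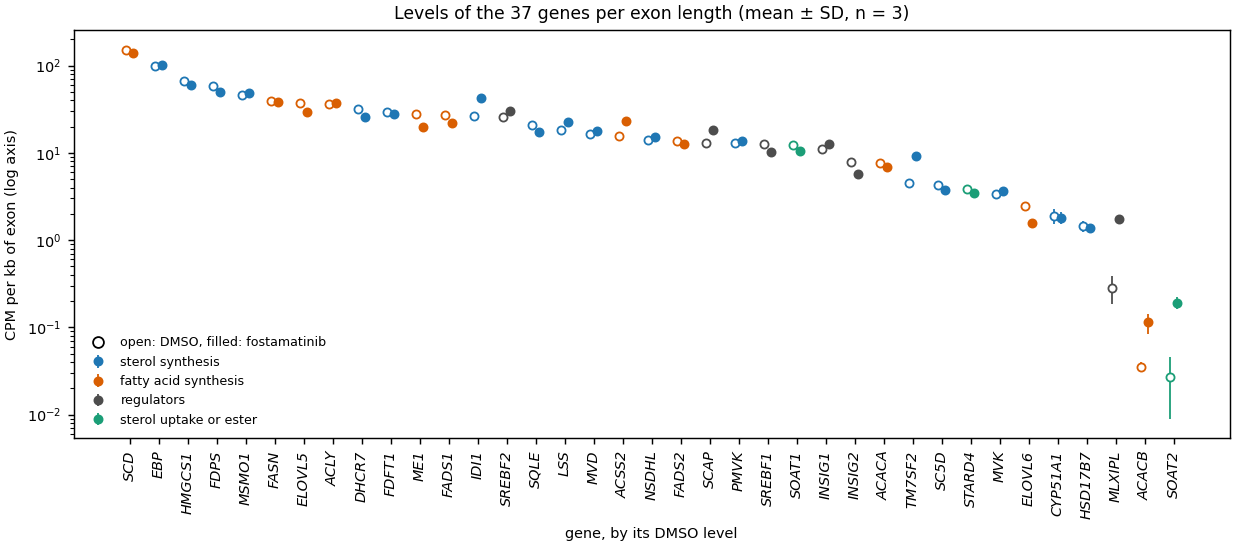
CPM per kb of exon (log y axis, mean ± SD, n = 3) of the 37 genes, ordered by their DMSO level; open points are DMSO and filled points fostamatinib. Levels run from 152 CPM per kb for SCD down to 0.0353 for ACACB in DMSO, and SOAT2, drawn last, rests on 1 read there.

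Neighbouring genes of the pathway were described from further lists. Of 11 other sterol and isoprenoid enzymes tested, 3 were higher and 2 lower (45.5% called against 47.8% of all tested genes, median change 0.03). Among them POR (0.30, adjusted p = 2.22e-06, limma) and CYB5R3 (0.30, adjusted p = 4.86e-08), which pass electrons to the oxidising steps, were higher, and NUS1, a subunit of the dolichol-making enzyme, was lower (-0.25, adjusted p = 4.65e-04). Of 15 genes of the machinery of SREBP cleavage and turnover, 6 were higher and 6 lower (80.0% called, median 0.08). Over all tested genes 47.8% were called, and 63.2% of those averaging 200 reads or more. FBXW7, which marks nuclear SREBPs for degradation, was higher (0.48, adjusted p = 8.06e-07), while PAQR3, which anchors SCAP to the Golgi apparatus, and UBE2G2, a ubiquitin-conjugating enzyme, were lower (-0.60 and -0.39).

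Larger changes were found in sterol uptake and transport. Of 18 genes tested, 8 were higher and 4 lower (66.7% called against 47.8% of all tested genes), with a median of 0.10. Where the mean was 200 reads or more, 63.2% of all genes were called. LRP8, a lipoprotein receptor, fell from 38.6, 39.7 and 38.8 CPM to 12.1, 13.4 and 14.5 CPM (-1.55, SE 0.080, adjusted p = 4.79e-18, limma). VLDLR, another receptor of the same family, fell from 66.1, 68.7 and 68.7 CPM to 33.2, 30.6 and 29.2 CPM (-1.13, SE 0.061, adjusted p = 1.80e-17). GRAMD1B, which moves cholesterol from the plasma membrane to the endoplasmic reticulum, rose from 12.4, 16.2 and 16.3 CPM to 38.9, 34.5 and 32.2 CPM (1.24, SE 0.091, adjusted p = 8.52e-14). In all 3 the groups did not overlap, as in 54.1% of all genes. Each change was larger than that of any of the 17 sterol synthesis genes.

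**Figure D5:**
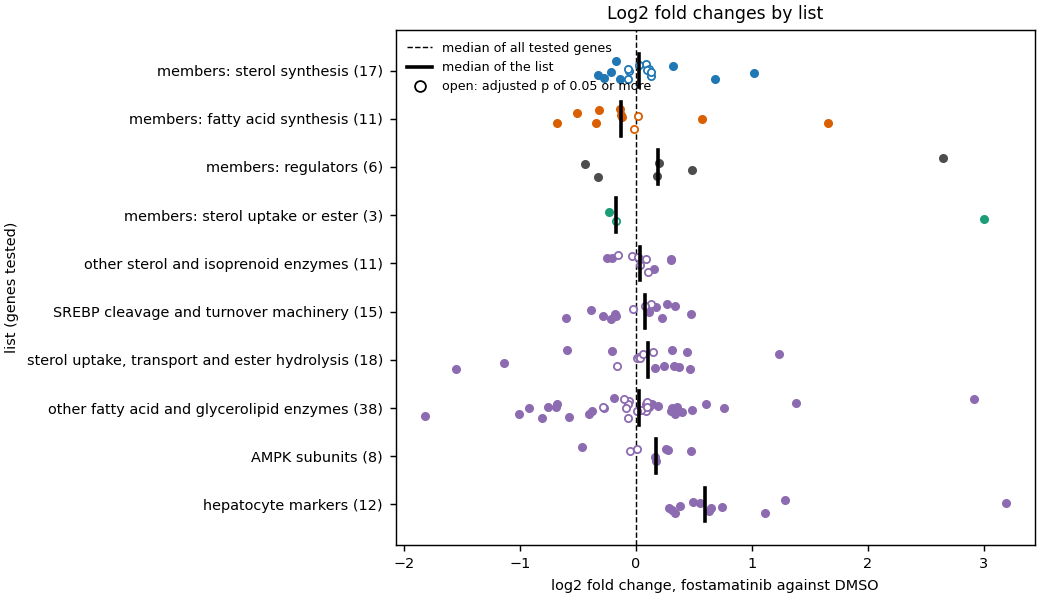
Log2 fold change (x axis) of every tested gene in each list (rows, with the number tested); filled points had an adjusted p-value under 0.05, short bars are list medians and the dashed line is the median of all genes. The medians of the sterol (0.03) and fatty acid (-0.12) lists lie close to the line, and that of the hepatocyte markers at 0.59.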

How the data were processed

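RNA was sequenced from 3 DMSO and 3 fostamatinib samples of Huh7SR cells; groups and replicate numbers are those of the sample titles. The authors aligned reads with HISAT (genome hg19) and obtained gene counts from featureCounts with GENCODE v.22, removed genes under 5 reads in at least 2 of 3 samples of each group and applied TMM scaling (versions and strand setting are not given in the sources used here; the library kit is directional). The deposited values are log2 CPM with 0.5 added to each count. All values turned back into reads within 0.05 of a whole number, which gave depth and allowed other scalings. A ribosomal RNA gene listed repeatedly was used once.

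Changes were fitted across all 16305 genes with limma 3.58.1 in R 4.3.3 (lmFit, eBayes with a mean-variance trend, treatment as the single term) with Benjamini-Hochberg adjustment; the step was tested on simulated data. Because of the added 0.5, changes of genes with few reads are understated. Gene positions and exon lengths are from GRCh37 with GENCODE v44 mapped to it, and promoters from RefSeq on GRCh38.p14. Other tables were made with Python 3.11.15, pandas 2.3.3 and scipy 1.17.1. All 37 members are named, as are, of each further pathway list, the 3 called genes that changed most among those averaging 50 reads or more in either group; MLX and MLXIP were added after their values were seen. Members and lists were chosen with earlier results of these data known. Within groups, pairs of samples varied 1.65 to 3.74 times as much as counting alone allows (chi-square divided by its degrees of freedom, genes averaging 30 reads or more), so each sample was counted as a separate library. Alternatives were limma-voom, no trend, RLE or library-size scaling, a filter of 10 reads in every sample, a pseudocount of 2, a replicate block and leaving out each sample.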

Additional observations from a re-analysis of the deposited data

How the results depend on the processing

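Counts of members here include SOAT2, so the 9 higher members given above are 10 here. SOAT2 met the read minimum only in the fostamatinib samples, so its call is no evidence of stability. With limma-voom, RLE scaling, library size alone, a pseudocount of 2 or the replicate block, all 37 genes kept their direction and their side of the threshold. Shared replicate numbers did not pair the samples (correlations of same-numbered deviations 0.034, -0.044 and 0.041 over 11485 genes), and with the replicate block 10 members were higher and 15 lower, with 3879 genes higher and 4098 lower over all genes. Without a variance trend 20 members were called, and the count of lower fatty acid genes dropped to 4. With at least 10 reads in every sample ACACB and SOAT2 were not tested, which left 1 higher fatty acid gene and 0 higher genes of uptake or esterification. When each sample was left out in turn, 22 to 24 members were called, 9 to 11 higher and 13 to 14 lower. Among genes that did not pass the test, the sign turned in some of these fits, with ranges of -0.00049 to 0.14 for PMVK, -0.23 to 0.060 for CYP51A1, -0.055 to 0.017 for FASN, -0.16 to 0.031 for HSD17B7 and -0.014 to 0.066 for EBP. The median change of all genes stayed between -0.0096 and 0.0052 in these fits. The authors had filtered the deposited tables already, which left no unfiltered version to compare. Where a call was lost, the cause was not tested. The few reads of SOAT2, ACACB and MLXIPL limit how precisely their changes are known.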

Other observations

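The steps of fatty acid elongation after the ELOVL enzymes did not move together (genes chosen after their values were seen). HSD17B12, the reductase of the second step, fell from 99.0, 86.4 and 107 CPM to 56.4, 56.0 and 54.2 CPM (-0.81, SE 0.059, adjusted p = 7.49e-14, limma). HACD1, a dehydratase of the third step, was lower (-0.38, adjusted p = 9.13e-06), whereas the related HACD2 and HACD3 were slightly higher (0.19 and 0.09). TECR, the reductase that completes the cycle, rose from 56.2, 60.8 and 53.5 CPM to 88.6, 83.9 and 86.3 CPM (0.60, SE 0.054, adjusted p = 1.52e-11). In all 5 genes the groups did not overlap, as in 54.1% of all genes.

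Of 38 other fatty acid and glycerolipid genes tested, 15 were higher and 11 lower (68.4% called against 47.8% of all tested genes). Their median change was 0.03. Among all genes averaging 200 reads or more, 63.2% were called. GPAM, the mitochondrial enzyme that starts glycerolipid synthesis, fell from 74, 94 and 83 reads to 16, 24 and 27 reads (-1.82, SE 0.208, adjusted p = 3.68e-09, limma). DGAT1, which makes triacylglycerol in the last step, rose from 15.9, 15.5 and 12.3 CPM to 35.7, 39.6 and 37.9 CPM (1.38, SE 0.086, adjusted p = 1.04e-15). ACSL1, an acyl-CoA synthetase, fell from 66.3, 70.9 and 72.9 CPM to 37.1, 36.8 and 36.9 CPM (-0.92, SE 0.057, adjusted p = 1.02e-15). Of 8 genes of AMPK, the kinase that inhibits the acetyl-CoA carboxylases, and its upstream kinases, 5 were higher and 1 lower. This was 75.0% called, against the same 47.8% and 63.2%. PRKAB2 (0.48) and PRKAG1 (0.28) were higher and the catalytic subunit PRKAA2 was lower (-0.46).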
